A study of Mus musculus with 12 samples.

Results

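The genes described here were 10 regulators of adipogenesis and of lipid handling (Pparg, Cebpa, Cebpb, Cebpd, Lpl, Cd36, Fabp4, Plin2, Apoe and C1qtnf3), taken by name from a table of 54352 gene symbols. They were measured by bulk RNA sequencing in primary adventitial fibroblasts, which form the connective tissue in the outer coat of the aorta. The fibroblasts were cultured from the ascending aorta (with the aortic root) or the descending thoracic aorta of wild type C57Bl/6 mice, and were either left untreated (control, 0 ng/mL) or given TGFβ at 10 ng/mL for 48 h. Each of the 4 groups of site and treatment held 3 libraries, 12 in all, and no transgene or deletion was carried by any group. The sample labels give an age of 14 weeks, 1 passage and one batch. The sources differ on age and passage, and none says which cultures came from which animals, so the p-values measure the spread between cultures. The comparisons address whether fibroblasts of each site changed these genes with TGFβ, and whether the sites differed before and after it.

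Adipogenesis, the formation of fat cells from precursors of the fibroblast lineage, is driven by a cascade of transcription factors. C/EBPβ and C/EBPδ act early, and PPARγ and C/EBPα then maintain each other and switch on genes for the uptake and storage of fat. TGFβ is known to block this cascade in culture. The fat around the aorta lies next to the adventitia, so adipocyte precursors are part of the biology of this layer.

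All 10 genes lie in the GRCm38 annotation (GENCODE vM21). The regulators are Pparg (chr6:115360951-115490399), Cebpa (chr7:35119293-35121928), Cebpb (chr2:167688915-167690418) and Cebpd (chr16:15887286-15891031). The genes of uptake and intracellular transport are Lpl (chr8:68880491-68907448), Cd36 (chr5:17781690-17888801) and Fabp4 (chr3:10204088-10208576). The remaining genes are Plin2 (chr4:86648386-86670060), Apoe (chr7:19696109-19699188) and C1qtnf3 (chr15:10952332-10980150). Of the exon sequence of Cebpb, 312 bases overlap the antisense gene Tmem189, and of Cebpd, 562 bases overlap the antisense gene Spidr. In Cebpa, 51 bases overlap the antisense gene Gm45091. The strand setting of the count is not given in the sources used here, so reads in these stretches cannot be assigned with certainty. The share of 50-base sequences found in another gene was 18.1% for Cebpb, 13.7% for Cebpd, 2.57% for Plin2 and 1.4% for Lpl, and below 1% for the other 6 genes.

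Start sites in RefSeq (GRCm38.p6) were matched for 7 of the 10 genes, with 11 promoters in all. Shown here are the 250 bases before the start of C1qtnf3 and Plin2, which rose with TGFβ, and of Cebpa and the third Pparg start, since Cebpa and Pparg had different TGFβ changes at the 2 sites when a divergent library was left out. Capitals mark matches, on either strand, to motifs searched by their letters: the SMAD box CAGAC, the C/EBP site TTGCNNAA, the MCAT element CATTCC and the TATA box TATAAA.
C1qtnf3 (chr15:10952082-10952331, plus strand): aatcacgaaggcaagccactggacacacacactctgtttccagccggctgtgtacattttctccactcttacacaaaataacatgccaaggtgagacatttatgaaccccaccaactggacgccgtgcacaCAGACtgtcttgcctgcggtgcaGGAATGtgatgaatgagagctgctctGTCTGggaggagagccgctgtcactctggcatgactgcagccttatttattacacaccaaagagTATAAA
Plin2 (chr4:86670060-86670309, minus strand): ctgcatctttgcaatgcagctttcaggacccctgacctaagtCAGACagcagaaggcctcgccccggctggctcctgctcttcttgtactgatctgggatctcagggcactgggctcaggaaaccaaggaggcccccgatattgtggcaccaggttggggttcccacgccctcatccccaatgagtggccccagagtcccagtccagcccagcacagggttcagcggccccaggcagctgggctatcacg
Cebpa (chr7:35119043-35119292, plus strand): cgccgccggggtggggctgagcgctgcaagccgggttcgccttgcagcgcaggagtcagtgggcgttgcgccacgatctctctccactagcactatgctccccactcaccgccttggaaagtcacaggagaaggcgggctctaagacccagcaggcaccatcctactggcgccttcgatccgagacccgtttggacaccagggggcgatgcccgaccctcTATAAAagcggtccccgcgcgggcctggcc
Pparg, the third start (chr6:115421816-115422065, plus strand): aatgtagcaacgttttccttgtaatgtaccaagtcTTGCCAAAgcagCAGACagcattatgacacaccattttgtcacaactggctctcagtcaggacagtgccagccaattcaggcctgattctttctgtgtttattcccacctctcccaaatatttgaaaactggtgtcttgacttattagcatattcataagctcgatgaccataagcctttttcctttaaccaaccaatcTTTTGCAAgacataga

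The C1qtnf3 stretch held 2 SMAD boxes, ending 114 and 65 bases before the start, an MCAT element 90 bases before it and a TATA box next to it. The Plin2 stretch held a SMAD box 203 bases before the start and no other of the 9 motifs searched. The Cebpa stretch held a TATA box 24 bases before its start. The third Pparg stretch held C/EBP sites 207 and 8 bases before the start, and a SMAD box 198 bases before it. The first and second Pparg stretches, not shown, held GC boxes and, in the second, a TATA box, but no SMAD box or C/EBP site. Cd36 and Apoe, which fell with TGFβ in ascending fibroblasts, also held a SMAD box, 194 bases before the Cd36 start and 130 before the first Apoe start. Among all 32851 promoters of the same length, 42.2% held a SMAD box, 12.6% the MCAT element, 12.4% the TATA box and 9.56% the C/EBP site. The other 5 motifs were the AP-1 site TGANTCA (6.75% of all promoters), the CArG box (1.47%), the DR1 element to which PPARγ binds with RXR, a repeat of AGGTCA with 1 base between (0.0335%), the GC box GGGCGG (32.7%) and the E-box CACGTG (6.02%). Of these 5, the GC box alone was present in the 11 stretches. A match is a description of these letters and shows no binding. Counts per gene also do not tell which of the Pparg starts was used.

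Reads counted on genes ranged from 16250126 to 23892943 per library. Values are given as normalized CPM, counts relative to the library total after edgeR's TMM scaling, and levels of different genes were compared only as CPM per kilobase of the principal transcript. In each library every one of the 10 genes had at least 12 counts, above a floor of 3 counts. A gene was called when the Benjamini-Hochberg adjusted p of edgeR's two-sided quasi-likelihood test was under 0.05, and the errors of log2 fold changes are standard errors.

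A pair of libraries stood apart. The descending control replicate 3 had counts on 13031 genes, against 19337 to 20931 in the other 11 libraries, with 11.02% of its counts on mitochondrial genes against 0.703 to 1.03%. Of the 14637 genes tested over the 12 libraries, 27.7% were more than 2-fold lower in it than in the other descending controls and 13.5% more than 2-fold higher. Among the 10 genes, it had the lowest descending control value of Pparg, Cebpa, Cebpb, Cebpd, Plin2, Apoe and C1qtnf3 and the highest value of Lpl, Cd36 and Fabp4. The ascending control replicate 2 was more than 2-fold higher than the other ascending controls at 0.793% of the genes tested, but at 4 of the 10 genes (Lpl, Cd36, Fabp4 and Apoe), at 12 of the 13 macrophage markers tested and at 6 of the 11 adipocyte markers tested. Fold changes of the 10 genes are given with these libraries, and most of those they enter also without them.

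**Figure D1:**
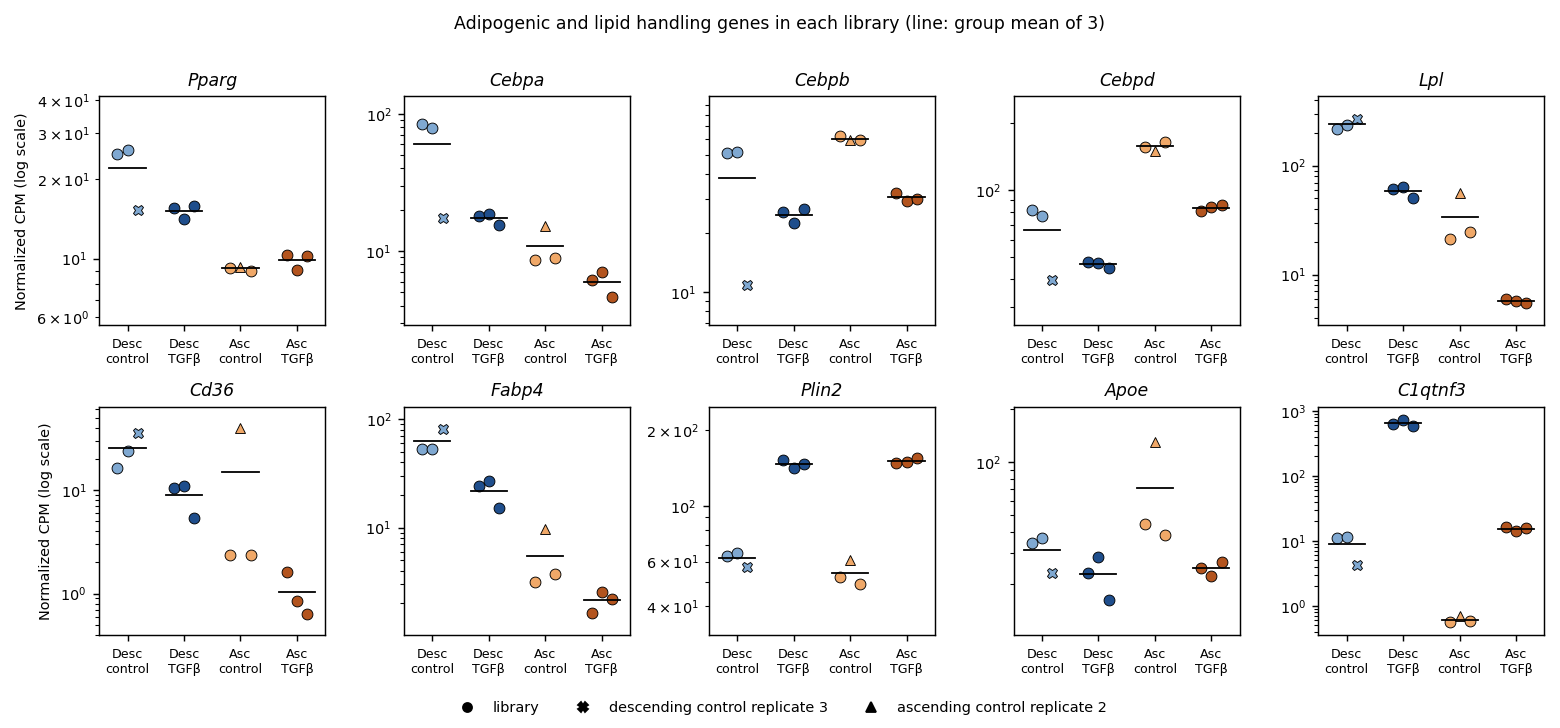
Normalized CPM (log scale) of the 10 genes in each of the 12 libraries, by group, with a line at the mean of the 3 libraries of a group. The cross is the descending control replicate 3 and the triangle the ascending control replicate 2; C1qtnf3 and Plin2 lay higher in every TGFβ library than in any control library of the same site, whereas Lpl, Cd36 and Fabp4 lay lower.

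With TGFβ, 9 of the 10 genes were called in ascending fibroblasts. Plin2 and C1qtnf3 rose, Cebpa, Cebpb, Cebpd, Lpl, Cd36, Fabp4 and Apoe fell, and Pparg did not pass the test. This comparison called 55.8% of the 13917 genes tested, 28.2% as higher and 27.6% as lower, and the median log2 fold change was -0.96 for the 10 genes and -0.0044 for all genes tested. Without the ascending control replicate 2 the same 9 genes were called, against 52.3% of all genes tested. In descending fibroblasts 4 genes were called against 8.07% of the 13825 genes tested (3.59% higher and 4.48% lower): Plin2 and C1qtnf3 rose, and Lpl and Fabp4 fell. Without the descending control replicate 3, all 10 genes were called against 52.9% of 14311 genes (26.6% higher and 26.3% lower), Plin2 and C1qtnf3 higher and the other 8 lower. The median log2 fold change was then -0.91 for the 10 genes and -0.012 for all genes tested. The control libraries of each site serve both its TGFβ comparison and the comparison of the sites, so these comparisons are not independent of each other.

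The groups did not overlap for all 9 genes called in ascending fibroblasts, against 61.4% of all genes tested. In descending fibroblasts they did not overlap for Plin2, C1qtnf3, Lpl, Cd36 and Fabp4, against 43.6%.

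**Figure D2:**
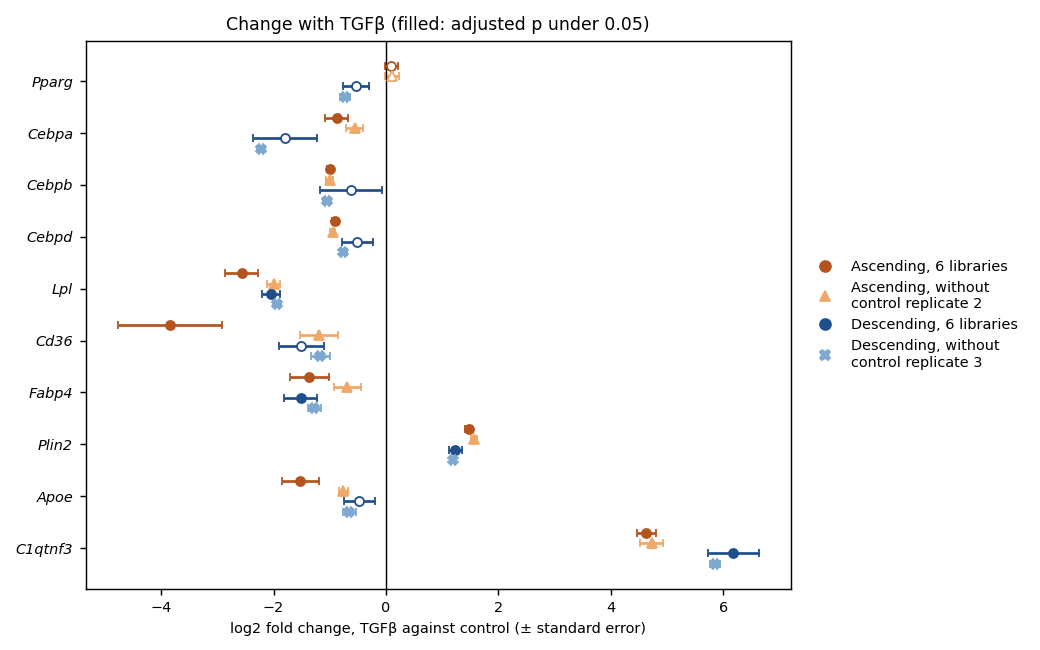
Log2 fold change with TGFβ (x axis, with its standard error) of each gene in ascending and descending fibroblasts, over 6 libraries and without the library that stood apart. Filled symbols have an adjusted p under 0.05; C1qtnf3 and Plin2 lie to the right of 0 in all 4 fits, and Cd36 in ascending fibroblasts moved from -3.85 to -1.19 when the control replicate 2 was left out.

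Among the regulators, Pparg, the nuclear receptor at the centre of fat cell formation, was highest in descending control fibroblasts. Its normalized CPM was 25.0, 25.8 and 15.2 in the descending control libraries and 15.5, 14.2 and 15.9 in the descending TGFβ libraries. In ascending fibroblasts it was 9.25, 9.34 and 8.96 in control and 10.3, 9.03 and 10.3 with TGFβ. The ascending values thus lay below every descending value in both conditions, and the ascending groups overlapped each other. The log2 fold change with TGFβ was 0.10 ± 0.11 in ascending fibroblasts (adjusted p = 0.474) and 0.11 ± 0.12 without the control replicate 2. In descending fibroblasts it was -0.54 ± 0.23 (adjusted p = 0.228), and -0.74 ± 0.09 without the control replicate 3 (adjusted p = 5.12e-08).

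Cebpa encodes C/EBPα, the partner of PPARγ in mature fat cells. It had 83.6, 78.9 and 17.4 normalized CPM in descending control, and 18.1, 18.6 and 15.5 with TGFβ. The ascending libraries had 8.60, 15.3 and 8.91 in control and 6.11, 7.09 and 4.63 with TGFβ. The descending control replicate 3 lay within the range of the TGFβ libraries, while the other descending controls lay over 4-fold above them. With TGFβ, Cebpa changed by -1.79 ± 0.57 in descending fibroblasts over 6 libraries (adjusted p = 0.123) and by -2.23 ± 0.08 without that library (adjusted p = 8.47e-21). In ascending fibroblasts it changed by -0.88 ± 0.21 (adjusted p = 0.00156), and by -0.56 ± 0.15 without the control replicate 2.

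The early factors Cebpb and Cebpd had the opposite order of sites. Cebpb had 51.4, 52.1 and 10.9 normalized CPM in descending control and 25.6, 22.4 and 26.6 with TGFβ. The ascending values were 62.2, 59.4 and 59.4 in control and 32.2, 29.2 and 29.9 with TGFβ. With the exception of the descending control replicate 3, every control library lay well above the TGFβ libraries of its site. Cebpb changed by -0.99 ± 0.05 in ascending fibroblasts (adjusted p = 6.23e-11; -1.005 ± 0.061 without the control replicate 2) and, without that library, by -1.05 ± 0.08 in descending ones (adjusted p = 7.68e-13). With it the descending value was -0.62 ± 0.55 (adjusted p = 0.546).

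Cebpd had 81.6, 76.6 and 39.8 normalized CPM in descending control, 47.9, 46.9 and 44.6 in descending TGFβ, 157, 150 and 164 in ascending control and 80.8, 83.7 and 85.7 in ascending TGFβ libraries. Every ascending control library lay above every other library. Cebpd changed by -0.92 ± 0.04 with TGFβ in ascending fibroblasts (adjusted p = 1.09e-11), and by -0.95 ± 0.04 without the control replicate 2. In descending ones it changed by -0.51 ± 0.28 (adjusted p = 0.327), and by -0.77 ± 0.06 without the control replicate 3 (adjusted p = 1.03e-11).

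The genes that bring fatty acids into the cell and bind them came next. Lpl encodes lipoprotein lipase, which releases fatty acids from circulating triglyceride. Its normalized CPM was 215, 234 and 270 in descending control, 61.2, 64.1 and 50.5 in descending TGFβ, 21.0, 56.3 and 24.6 in ascending control and 5.95, 5.67 and 5.50 in ascending TGFβ libraries. No 2 groups shared a value, except that the ascending control replicate 2 lay among the descending TGFβ libraries. With TGFβ, Lpl changed by -2.04 ± 0.16 in descending fibroblasts (4.12-fold lower, adjusted p = 0.00209) and by -2.57 ± 0.30 in ascending ones (5.94-fold lower, adjusted p = 1.5e-06). Without the ascending control replicate 2 the ascending value was -2.00 ± 0.11, and without the descending control replicate 3 the descending value was -1.94 ± 0.07.

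Cd36 encodes a fatty acid translocase and scavenger receptor that fat cells, macrophages and microvascular endothelium express. It had 16.4, 23.5 and 35.6 normalized CPM in descending control and 10.4, 10.9 and 5.34 with TGFβ. Its ascending values were 2.35, 39.9 and 2.34 in control and 1.62, 0.851 and 0.633 with TGFβ. The ascending control replicate 2 was 17.0-fold above the mean of the other ascending controls and above every other library. The fold change with TGFβ in ascending fibroblasts, -3.85 ± 0.93 (adjusted p = 0.00204), became -1.19 ± 0.33 without this library (adjusted p = 0.00336). DESeq2 did not call Cd36 over the 6 ascending libraries. In descending fibroblasts the change was -1.51 ± 0.40 (adjusted p = 0.0813), and -1.17 ± 0.17 without the control replicate 3 (adjusted p = 8.8e-07).

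Fabp4, the fatty acid binding protein that is abundant in fat cells, had 53.3, 52.8 and 82.0 normalized CPM in descending control and 23.98, 26.7 and 15.3 with TGFβ. In ascending fibroblasts it had 3.17, 9.69 and 3.70 in control and 1.62, 2.55 and 2.19 with TGFβ. All descending libraries, treated or not, lay above all ascending ones. With TGFβ it changed by -1.52 ± 0.29 in descending fibroblasts (adjusted p = 0.0313) and by -1.37 ± 0.35 in ascending ones (adjusted p = 0.00301). Without the ascending control replicate 2 the ascending change was -0.69 ± 0.24 (adjusted p = 0.0175), and without the descending control replicate 3 the descending change was -1.28 ± 0.11. The descending call of Fabp4 was lost without any 1 of the other 5 libraries of that comparison (adjusted p from 0.0728 to 0.152).

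Plin2, which coats lipid droplets in most cell types, went the other way. It had 63.3, 65.0 and 56.9 normalized CPM in descending control, 151, 141 and 146 in descending TGFβ, 52.4, 61.1 and 49.0 in ascending control and 148, 149 and 155 in ascending TGFβ libraries. All 6 TGFβ libraries lay in one narrow range, more than 2-fold above all 6 control libraries. The log2 fold change was 1.24 ± 0.11 in descending (adjusted p = 0.00368) and 1.47 ± 0.06 in ascending fibroblasts (adjusted p = 2.29e-12). Without the library that stood apart at each site these values were 1.19 ± 0.06 and 1.56 ± 0.05.

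Apoe, the apolipoprotein that carries cholesterol and is also secreted by macrophages, had 34.3, 36.9 and 23.2 normalized CPM in descending control, 23.3, 28.6 and 16.3 in descending TGFβ, 44.4, 130 and 38.4 in ascending control and 24.8, 22.1 and 26.8 in ascending TGFβ libraries. The ascending control replicate 2 was 3.14-fold above the mean of the other ascending controls. The change with TGFβ in ascending fibroblasts was -1.53 ± 0.33 (adjusted p = 0.000798), and without this library -0.76 ± 0.08 (adjusted p = 2.2e-09). In descending fibroblasts it was -0.48 ± 0.27 (adjusted p = 0.354), and -0.65 ± 0.12 without the control replicate 3 (adjusted p = 2.88e-05); in that setting DESeq2 did not call Apoe.

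C1qtnf3 encodes CTRP3, a secreted protein with a collagen and a C1q domain that belongs to the adiponectin family. It had 11.04, 11.4 and 4.20 normalized CPM in descending control and 635, 732 and 586 with TGFβ. In ascending fibroblasts it had 0.565, 0.699 and 0.584 in control, from 12 to 14 counts a library, and 16.4, 14.0 and 15.7 with TGFβ. The 4 groups did not overlap, and the ascending TGFβ libraries only slightly exceeded the descending control libraries. C1qtnf3 rose 72.4-fold in descending fibroblasts (log2 fold change 6.18 ± 0.45, adjusted p = 0.00176) and 24.7-fold in ascending ones (4.63 ± 0.17, adjusted p = 5.91e-13). These were the 9th highest log2 fold change of 13825 genes and the 11th highest of 13917. Without the descending control replicate 3 the rise was 58.1-fold (5.86 ± 0.09), and without the ascending control replicate 2 it was 26.4-fold (4.72 ± 0.20).

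On the scale of CPM per kilobase, which allows genes to be ordered, Fabp4 (70.0 ± 18.7, SD, n = 3) and Lpl (58.3 ± 6.81) were the highest of the 10 genes in descending control fibroblasts and did not differ from each other beyond their spread. C1qtnf3 (3.80 ± 1.73) and Cd36 (7.42 ± 2.85) were the lowest. In descending fibroblasts with TGFβ the order was led by C1qtnf3 (278 ± 31.9) and Plin2 (77.4 ± 2.68). In ascending control fibroblasts Apoe (50.4 ± 36.4), Cebpd (41.9 ± 1.92) and Cebpb (40.1 ± 1.07) came first, within the spread of Apoe, and C1qtnf3 was last (0.263 ± 0.0310). Without the ascending control replicate 2, Apoe was at 29.4, below Cebpd and Cebpb. In ascending fibroblasts with TGFβ, Plin2 was first (79.7 ± 1.90) and Cd36 last (0.304 ± 0.152).

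Between the sites, 3 of the 10 genes were called in control fibroblasts, where 2.65% of the 14090 genes tested were called (1.19% higher and 1.47% lower in ascending fibroblasts). Lpl, Fabp4 and C1qtnf3 were lower in ascending than in descending fibroblasts, by -2.82 ± 0.42 (adjusted p = 0.0296), -3.50 ± 0.51 (adjusted p = 0.0276) and -3.83 ± 0.48 (adjusted p = 0.0171) on the log2 scale. Without the descending control replicate 3, when 31.6% of 14644 genes were called (16.4% higher and 15.2% lower), 8 of the 10 genes were called. Cebpb (0.23 ± 0.05) and Cebpd (1.00 ± 0.06) were then higher in ascending fibroblasts, and Pparg (-1.45 ± 0.09), Cebpa (-2.89 ± 0.15), Lpl (-2.72 ± 0.25), Fabp4 (-3.28 ± 0.24), Plin2 (-0.23 ± 0.08) and C1qtnf3 (-4.17 ± 0.19) lower. Cd36 did not pass in this setting (-0.44 ± 0.75, adjusted p = 0.711), with the ascending control replicate 2 in the group. When that library was left out as well, Cd36 was at -3.08 ± 0.18 (adjusted p = 5.08e-13), Apoe was at 0.23 ± 0.08 (adjusted p = 0.0308), and all 10 genes were called, against 30.8% of 14440 genes. Leaving out only the ascending control replicate 2 left Lpl and Fabp4 called, against 0.295% of all genes, and put C1qtnf3 at an adjusted p of 0.117. Leaving out the descending control replicate 1 or 2 left 0 of the 10 genes called, against 108 of 14284 and 77 of 14318 genes. Without the ascending control replicate 1 or 3, 0 of the 10 were called, against 33 of 14370 and 33 of 14574 genes. In these fits 6 to 7 of the 10 had an unadjusted p under 0.05 in edgeR. The share of all genes under that unadjusted limit was not counted in any fit.

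The comparison of the sites with TGFβ uses neither of the libraries that stood apart. It called 36.3% of the 13678 genes tested (18.1% higher and 18.2% lower) and 8 of the 10 genes. Cebpd (0.85 ± 0.05, adjusted p = 2.24e-14) and Cebpb (0.29 ± 0.07, adjusted p = 0.00228) were higher in ascending fibroblasts. C1qtnf3 was 42.3-fold lower (-5.40 ± 0.07, adjusted p = 4.02e-29), Lpl 10.2-fold lower (-3.36 ± 0.09, adjusted p = 8.37e-22), Fabp4 10.2-fold lower (-3.35 ± 0.18, adjusted p = 4.58e-15) and Cd36 8.60-fold lower (-3.10 ± 0.27, adjusted p = 1.26e-10). Cebpa (-1.54 ± 0.12, adjusted p = 2.92e-11) and Pparg (-0.62 ± 0.10, adjusted p = 9.63e-06) were lower too. Plin2 (0.04 ± 0.04, adjusted p = 0.457) and Apoe (0.12 ± 0.12, adjusted p = 0.447) did not pass. All 8 genes called had groups that did not overlap, against 46.1% of all genes.

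**Figure D3:**
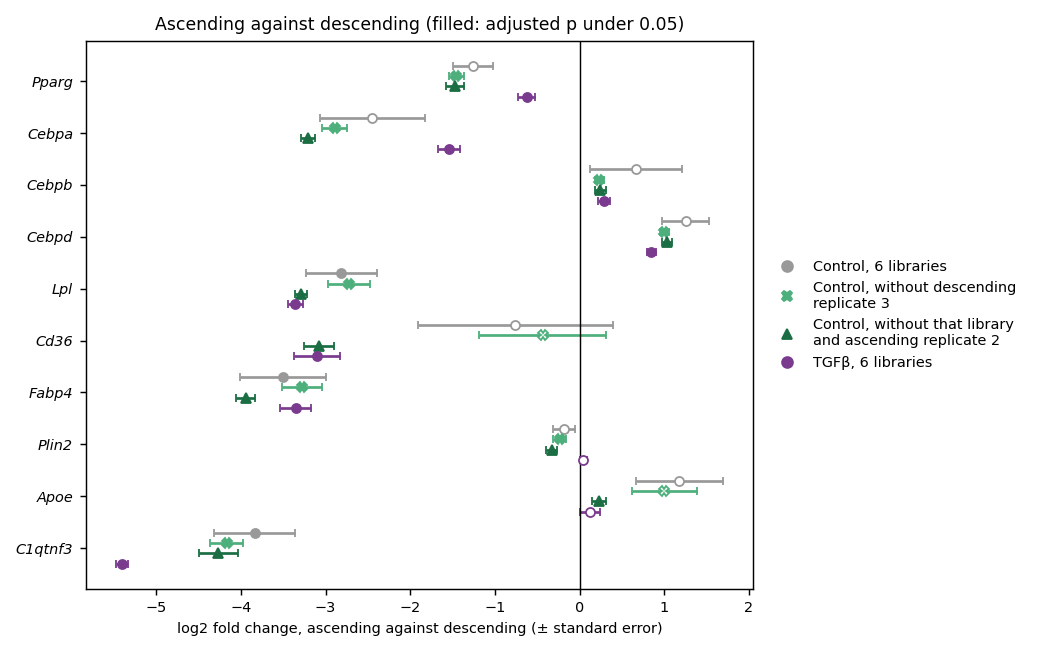
Log2 fold change of ascending against descending fibroblasts (x axis, with its standard error) in control, over 6 libraries and without 1 or both of the libraries that stood apart, and with TGFβ. Filled symbols have an adjusted p under 0.05; Lpl, Fabp4 and C1qtnf3 lie at or below -2.72 in all 4 fits, and Cebpd lies above 0.

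Whether the change with TGFβ differed between the sites was tested by the interaction of site and treatment. Over the 12 libraries edgeR called none of the 10 genes, and 0.806% of the 14637 genes tested. At an unadjusted p under 0.05 there were 2 of the 10 (Pparg and C1qtnf3), and DESeq2 called 1 (C1qtnf3), against 3.4% of all genes. Without the descending control replicate 3, 4 of the 10 were called, against 13.5% of 15013 genes (6.07% more positive and 7.4% more negative in ascending fibroblasts). The change was more positive in ascending fibroblasts for Pparg (0.84 ± 0.13, adjusted p = 4.53e-05), Cebpa (1.36 ± 0.22, adjusted p = 0.0001) and Plin2 (0.28 ± 0.08, adjusted p = 0.0237), and less positive for C1qtnf3 (-1.23 ± 0.34, adjusted p = 0.0149). With the ascending control replicate 2 left out as well, 3 remained called against 13.3% of 14901 genes, and C1qtnf3 was at an adjusted p of 0.0534. In that setting the interactions of Lpl (-0.06 ± 0.13), Cd36 (-0.02 ± 0.34) and Apoe (-0.10 ± 0.16) were smaller than their standard errors, whereas that of Cd36 over the 12 libraries was -2.34 ± 1.38.

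Markers of the cell types that such cultures can hold were summed in each library. All 14 fibroblast markers were detected in each group, with sums from 14496 to 27733 normalized CPM. With TGFβ, 9 of them fell and 4 rose in ascending fibroblasts (median log2 fold change -1.03, against 27.6% and 28.2% of all genes), among them Ly6a (-2.94 ± 0.04, adjusted p = 9e-18), Cd34 (-1.90 ± 0.04, adjusted p = 9.7e-17) and, rising, Col1a1 (0.97 ± 0.02, adjusted p = 1.2e-15), and 7 fell and 2 rose in descending fibroblasts (4.48% and 3.59% of all genes), where 11 fell and 3 rose without the control replicate 3 (26.3% and 26.6%). Their part in the falls of the 10 genes was not tested. The 17 adipocyte markers summed to 97.7 to 130 normalized CPM in descending control, 45.5 to 71.0 in descending TGFβ, 44.2 to 64.3 in ascending control and 13.5 to 15.8 in ascending TGFβ libraries, with 15, 13, 10 and 6 of them above the floor in at least 1 library. Adiponectin (Adipoq), which defines fat cells, had 10.6, 14.3 and 10.5 normalized CPM in descending control and 7.14, 8.78 and 5.01 with TGFβ, but 0.304, 2.00 and 0.438 in ascending control and 0.313, 0.0473 and 0.0974 with TGFβ, the last from 1 to 6 counts. Plin1, which coats the droplets of fat cells, had 8.83, 11.4 and 13.1 in descending control and 0.521, 1.40 and 0.292 in ascending control. Car3, also abundant in fat cells, fell with TGFβ in descending fibroblasts (-2.71 ± 0.55, adjusted p = 0.039), and Ucp1, the marker of brown fat, was at 0 in 11 libraries and at 1 count in the other. Like Lpl and Fabp4, the sum of the adipocyte markers was thus highest in descending control and lowest in ascending TGFβ fibroblasts. Cd36 went the same way, apart from the ascending control replicate 2, which was its highest library. The part of the adipocyte markers in these results was not tested. In bulk RNA, fewer cells of a type and less RNA per cell cannot be told apart.

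The 16 macrophage markers summed to 69.9 and 71.9 normalized CPM in the ascending control replicates 1 and 3 and to 453 in replicate 2, against 35.3 to 62.5 in descending control, 17.7 to 32.1 in descending TGFβ and 37.3 to 54.8 in ascending TGFβ libraries. Lyz2, the lysozyme of macrophages, had 291 normalized CPM in that library and 38.8 and 42.4 in the other ascending controls. No group lacked the list as a whole. Fcgr1 alone was at 0, in descending control. Cd36, Apoe, Lpl and Fabp4 were highest among the ascending controls in the same library, where the adipocyte markers summed to 64.3 against 44.2 and 54.4, and the 11 tested had a median ratio of 2.09 to the other ascending controls. The falls of these 4 genes with TGFβ were called with and without it. Of 12 endothelial markers, Cldn5, Tie1 and Gpihbp1, the anchor of lipoprotein lipase on capillaries, were at 0 in each group. From 6 to 7 of the 12 were detected in each group, and their sum was 25.9 to 27.7 normalized CPM in descending control, 13.6 to 16.04 in descending TGFβ, 25.0 to 28.7 in ascending control and 9.24 to 11.4 in ascending TGFβ libraries. Tek, the angiopoietin receptor, made up most of that sum. Of the 4 endothelial markers tested at each site, Tek fell (-1.51 ± 0.15 in descending and -2.56 ± 0.10 in ascending fibroblasts, adjusted p = 0.00403 and 1.89e-12) and Erg, a transcription factor with 0 to 4 counts in each control library, had 55 to 108 with TGFβ. The 8 mesothelial and epicardial markers summed to 23.2 to 25.1 in descending control, 26.5 to 29.1 in descending TGFβ, 87.1 to 102 in ascending control and 49.98 to 59.7 in ascending TGFβ libraries. The 7 Schwann and neural markers summed to 20.2 to 34.9, 13.8 to 16.4, 28.7 to 35.2 and 20.3 to 22.4 in the same order of groups, and Sox10, which defines Schwann cells, was at 0 in both descending groups. The part of these cell types in the results was not tested. The 12 smooth muscle markers were detected in each group. They summed to 2590 to 2634 normalized CPM in descending control, 8166 to 8586 in descending TGFβ, 1634 to 1737 in ascending control and 5187 to 5287 in ascending TGFβ libraries.

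**Figure D4:**
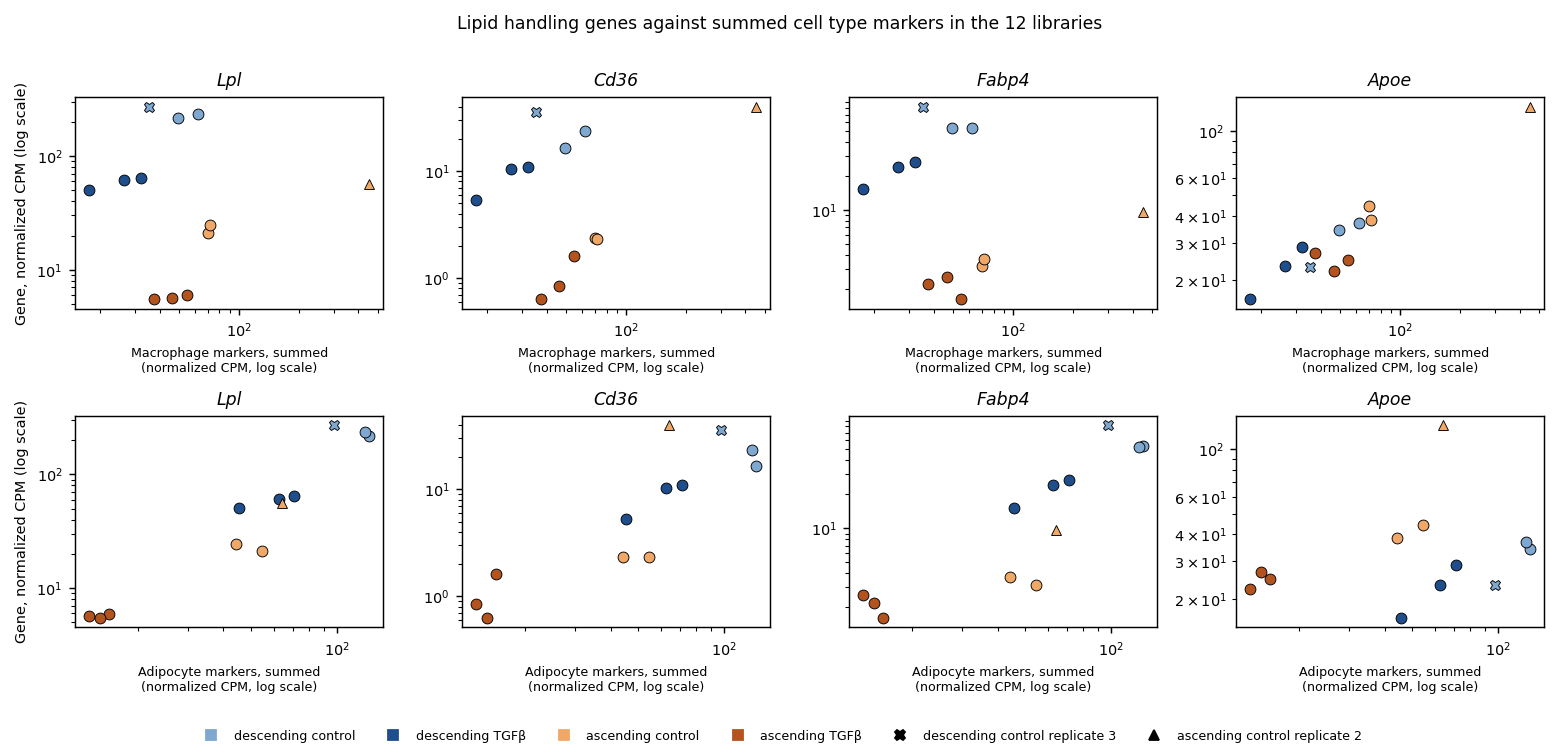
Normalized CPM of Lpl, Cd36, Fabp4 and Apoe (y axes) against the summed normalized CPM of 16 macrophage markers (top) and of 17 adipocyte markers (bottom) in the 12 libraries, all on log scales. The triangle, the ascending control replicate 2, lies alone at 453 on the macrophage axis, and the ascending TGFβ libraries lie lowest on the adipocyte axis.

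The other genes of the pathway were described from 9 lists. Of the 4 adipocyte markers tested in ascending fibroblasts, all fell with TGFβ, against 27.6% of all genes, for example Plin4 (-2.00 ± 0.09, adjusted p = 1.2e-11) and the β3 receptor gene Adrb3 (-0.94 ± 0.17, adjusted p = 0.00016), and 3 of 4 were called without the control replicate 2. In descending fibroblasts 1 of 11 was called lower (4.48% of all genes), and 8 of 13 without the control replicate 3 (26.3% of all genes). Between the sites with TGFβ, Plin4 was lower in ascending fibroblasts (-1.28 ± 0.10, adjusted p = 6.7e-12). Adipoq and Plin1 passed the filter on low counts there only through the descending libraries, so the list is not counted in that comparison.

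Of the 25 adipogenic transcription regulators other than the members, 14 fell and 3 rose with TGFβ in ascending fibroblasts, where 27.6% of all genes tested fell and 28.2% rose. Klf4, an early activator of Cebpb, fell by 1.56 on the log2 scale (SE 0.03, adjusted p = 9.2e-16), and Bmp4, a signal for commitment to the fat lineage, fell by 1.12 (SE 0.04, adjusted p = 1e-13). Egr2, which acts early with Klf4, rose by 3.01 ± 0.22 (adjusted p = 4.8e-09). In descending fibroblasts 1 rose and 5 fell (3.59% and 4.48% of all genes), among them Egr2 (2.61 ± 0.24, adjusted p = 0.0037) and Klf4 (-0.75 ± 0.12, adjusted p = 0.019), and without the control replicate 3 there were 3 higher and 18 lower of 26 (26.6% and 26.3% of all genes). The fall of Klf4 was larger in ascending fibroblasts over the 12 libraries (interaction -0.81 ± 0.12, adjusted p = 0.015). With TGFβ, Bmp4 was higher in ascending fibroblasts (2.09 ± 0.06, adjusted p = 4e-21) and Ebf2, a factor of brown fat precursors, lower (-1.83 ± 0.10, adjusted p = 2.1e-15).

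Of the 25 inhibitors of adipogenesis, 14 rose and 6 fell with TGFβ in ascending fibroblasts, with a median log2 fold change of 0.27, against the same shares of all genes. Wnt5a, a Wnt ligand, rose by 1.92 ± 0.05 (adjusted p = 2.8e-15), and Klf3, a repressor of Cebpa, fell by 0.96 (SE 0.03, adjusted p = 2.3e-13). In descending fibroblasts 5 rose and 1 fell of 24, against 3.59% and 4.48% of all genes. Among those that rose were Wnt10b, a Wnt ligand that blocks fat cell formation (3.11 ± 0.37, adjusted p = 0.0072), and Tgfb1 itself (1.99 ± 0.13, adjusted p = 0.0016). Without the control replicate 3, 14 rose and 7 fell of 24, against 26.6% and 26.3% of all genes. Between the sites with TGFβ, 17 of 25 were lower and 3 higher in ascending fibroblasts, against 18.2% and 18.1% of all genes. Dlk1, the preadipocyte factor Pref-1, was lower in ascending fibroblasts in control (-2.15 ± 0.17, adjusted p = 0.0045) and with TGFβ (-2.18 ± 0.06, adjusted p = 1.8e-21). Without the ascending control replicate 2 its difference in control was at an adjusted p of 0.055.

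The lists of lipid metabolism held genes called in both directions, and their counts in ascending fibroblasts stand beside 28.2% of all genes called higher and 27.6% lower. Of 18 genes of fatty acid uptake and binding, 6 rose and 6 fell with TGFβ in ascending fibroblasts; Angptl4, an inhibitor of lipoprotein lipase, rose by 0.89 ± 0.10 (adjusted p = 1.3e-06). Fabp5, the epidermal relative of Fabp4, was lower in ascending fibroblasts with TGFβ (-1.76 ± 0.04, adjusted p = 6.4e-23). Of 24 genes of lipid droplets and triglyceride turnover, 11 rose and 7 fell in ascending fibroblasts. G0s2, an inhibitor of the triglyceride lipase ATGL, fell by 2.96 (SE 0.10, adjusted p = 2.5e-13), and Plin3, a droplet coat protein related to Plin2, fell by 0.66 (SE 0.04, adjusted p = 8e-10).

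Of 23 genes of lipoprotein and sterol transport, 7 rose and 10 fell in ascending fibroblasts. Olr1, the LOX-1 receptor for oxidized LDL, had 0.174, 0.349 and 0.438 normalized CPM in ascending control, from 4 to 9 counts, and 15.6, 12.8 and 17.1 with TGFβ. It passed the filter on low counts only through the TGFβ libraries, so no test is given. In descending fibroblasts Abca1, the cholesterol exporter, fell by 1.51 (SE 0.12, adjusted p = 0.002). The receptor gene Vldlr fell in ascending fibroblasts (-1.82 ± 0.05, adjusted p = 9.8e-15), more than in descending ones (interaction -1.15 ± 0.16, adjusted p = 0.01). Of 15 genes of fatty acid synthesis 4 rose and 8 fell, and of 27 genes of fatty acid oxidation 6 rose and 11 fell in ascending fibroblasts. Scd1, the desaturase that makes oleate, was lower in ascending fibroblasts in control (-1.66 ± 0.16, adjusted p = 0.0088, and 0.0802 without the ascending control replicate 2) and with TGFβ (-1.76 ± 0.09, adjusted p = 1.8e-15).

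Of the 10 genes tested in ascending fibroblasts from the list of C1qtnf3 relatives and adiponectin receptors, 2 rose and 6 fell, against 28.2% and 27.6% of all genes. Those that rose were Adipor1 and Calr, and no C1qtnf gene of the list was called higher. C1qtnf7 changed by -2.05 ± 0.27 in ascending (adjusted p = 7e-06) and by -2.60 ± 0.41 in descending fibroblasts (adjusted p = 0.018), opposite in direction to C1qtnf3, and was lower in ascending fibroblasts with TGFβ (-1.95 ± 0.29, adjusted p = 2.9e-06). Cdh13, which encodes T-cadherin, a receptor for adiponectin, fell at both sites, with log2 fold changes of -1.06 ± 0.06 in ascending (adjusted p = 6.7e-11) and -1.02 ± 0.13 in descending fibroblasts (adjusted p = 0.0085). The medians of the pathway lists other than the adipocyte markers lay between -0.37 and 0.27 in ascending fibroblasts, beside -0.96 for the 10 genes, -2.00 for the adipocyte markers, -1.03 for the fibroblast markers and -2.09 for the macrophage markers, the last at -0.62 without the ascending control replicate 2.

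**Figure D5:**
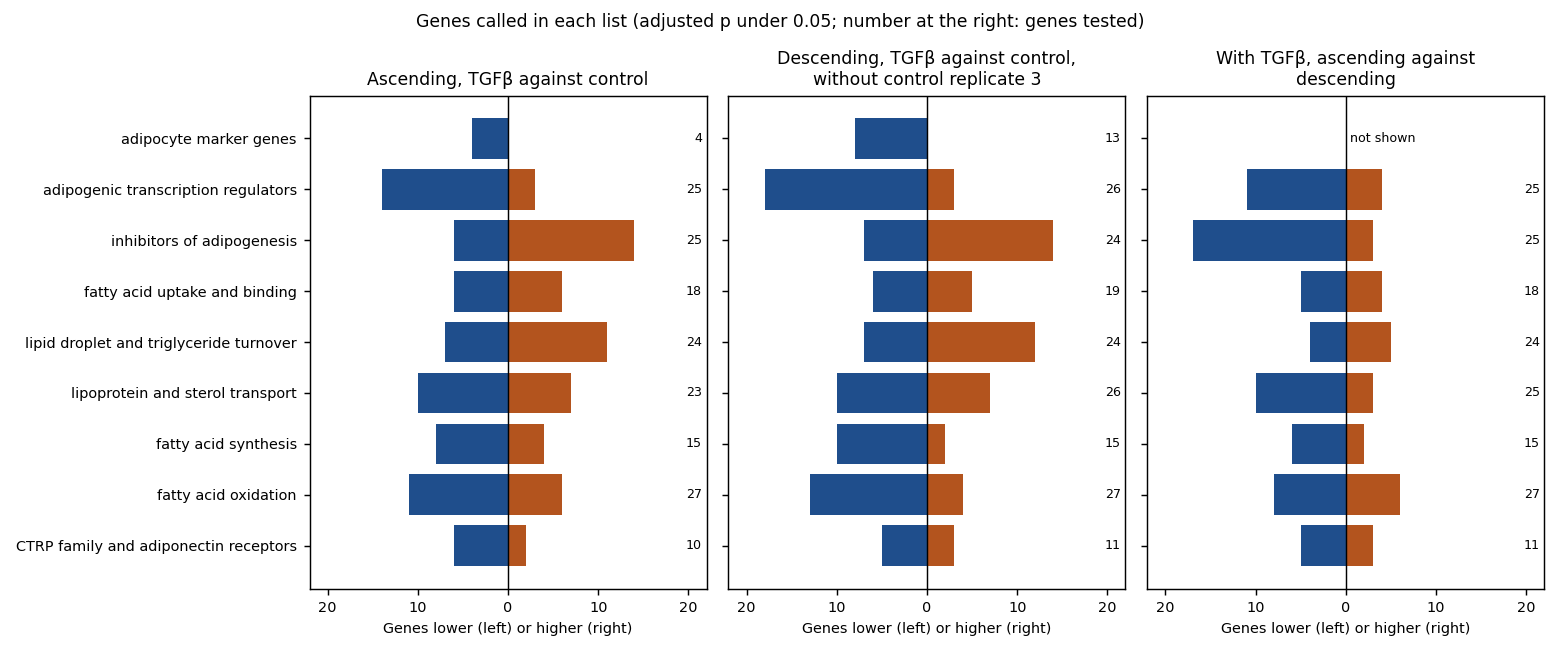
Number of genes called higher (right of 0) or lower (left of 0) in each of the 9 lists, with the number tested at the right edge, for TGFβ in ascending fibroblasts, TGFβ in descending fibroblasts without the control replicate 3, and the sites with TGFβ. The adipocyte markers are not shown for the sites, where some passed the filter only through the descending libraries, and 14 inhibitors of adipogenesis were called higher with TGFβ at either site.

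The genes with the most similar pattern were found as those with the smallest root mean square difference of centred log2 normalized CPM, with a pseudocount of 0.5, over the 12 libraries. Fabp4 was nearest to Plin1 (0.27, against 1.82 for the size of its own pattern) and Adipoq (0.42), which are fat cell genes, and then to Id4 (0.48). Lpl was nearest to Folh1 (0.43), Igfbp6 (0.51) and Fabp4 (0.53). Apoe was nearest to Hk3 (0.15), Nfam1 (0.27) and Lmo2 (0.27), which are known from blood cells. The distances of Cd36 were larger, at 0.82 from Lpl and 0.87 from Cidec, against 1.75 for its own pattern. C1qtnf3 was farthest from its nearest genes, Rgs4 (1.36), Acta1 (1.58) and Rgcc (1.65), against 3.33. Plin2 was nearest to D630003M21Rik (0.11), Gsto1 (0.13) and Fblim1 (0.13). Among the regulators, Pparg was nearest to Lpar4 (0.16), Cebpa to Fbln7 (0.27), Cebpb to Mpst (0.17) and Cebpd to Sema3b (0.12). These distances describe 12 libraries that fall into 4 groups, and 2 of those libraries stand apart.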

How the data were processed

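The authors sequenced total RNA of 12 cultures, and per the labels and methods aligned reads to mm10 with STAR and deposited featureCounts counts per gene symbol, not normalized. Their versions, annotation and strand setting are not given in the sources used here. All 54352 rows named a symbol, and totals ranged from 16250126 to 23892943 counts per library. The floor of 3 counts covers counting error only, while standard errors and SDs include the spread between cultures. Counts were tested in R 4.3.3 with edgeR 4.0.16 (TMM, filterByExpr with a minimum count of 10 and a total of 15, quasi-likelihood F-test, Benjamini-Hochberg adjustment, threshold 0.05) on the 6 libraries of each comparison, and on all 12 for the interaction. Groups came from the labels. Alternatives were DESeq2 1.42.0, its size factors, other filters, a fold change limit (log2 above 1), a block for the replicate number, the 12 libraries in one fit and leaving out each library; fits without 2 libraries, and DESeq2 without 1, were chosen after seeing the data. Fits were tested on simulated counts with the same relative spread for every gene and no library that stood apart. That test therefore does not cover the fits that hold such a library. The members and lists were chosen with earlier results of these data known. All 10 members are named; from each list and comparison, up to 2 genes per direction with the smallest adjusted p could be named, of which the text gives a selection, and per-library values of Adipoq, Plin1, Lyz2 and Ucp1 were added after their values were seen. One gene near Cd36 in pattern is not reported here. Figures used matplotlib 3.10.9.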

Additional observations from a re-analysis of the deposited data

Results flagged for a closer look

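The change with TGFβ differed between the sites for 4 of the 10 genes when the descending control replicate 3, which has 11.02% mitochondrial counts, was left out, by edgeR's test of the interaction itself, which then called 13.5% of all genes. For Pparg the difference was 0.84 ± 0.13 on the log2 scale, with a fall in descending and no called change in ascending fibroblasts. For Cebpa it was 1.36 ± 0.22, with the larger fall in descending fibroblasts, and for Plin2 0.28 ± 0.08, with the larger rise in ascending ones. For C1qtnf3 it was -1.23 ± 0.34, with the larger rise in descending fibroblasts, from 12 to 14 counts per ascending control library, and its adjusted p was 0.0534 with the ascending control replicate 2 left out too. None of the 10 was called by edgeR with that library included, where 2 had an unadjusted p under 0.05 and DESeq2 called 1 gene. For Pparg, Cebpa and Plin2 the call was made only without that library, and the cause was not tested.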

How the results depend on the processing

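Leaving out the descending control replicate 3 raised the number of the 10 genes called from 4 to 10 for TGFβ in descending fibroblasts, from 3 to 8 for the sites in control and from 0 to 4 for the interaction; with the ascending control replicate 2 left out too, the last 2 counts were 10 and 3. DESeq2 without the descending control replicate 3 gave 9, 8 and 4, against 46%, 26% and 12.3% of all genes. Over all libraries it gave 8 for TGFβ in ascending fibroblasts, losing Cd36, 6 in descending ones, 6 for the sites in control and 1 for the interaction, against 50.4%, 18.3%, 8.17% and 3.4% of all genes. With 1 library left out at a time in edgeR, the count for TGFβ in ascending fibroblasts stayed at 9. For TGFβ in descending fibroblasts it ranged from 3 to 10, where 213 to 7576 of all genes were called. For the sites in control it ranged from 0 to 8 (33 to 4631 of all genes), and for the interaction from 0 to 4 (25 to 2022 of all genes). With 12 libraries in one fit, TGFβ gave 6 genes in ascending fibroblasts (16% of all genes), where Cebpa, Cebpb and Fabp4 lost their call, and the sites gave 6 genes in control (10.6%) and 4 with TGFβ (7.56%). An added log2 fold change above 1 left 5 with TGFβ (7.68%). Whether the replicate numbers mark shared animals is not stated. Correlations of deviations between libraries of the same number were -0.031 to 0.094 over 18 pairs. With 3 libraries a group, these cannot show whether animals were shared. A replicate block gave 1 gene (C1qtnf3) for TGFβ in descending fibroblasts, against 0.687% of all genes. It gave 0 for the sites in control, where 0 of 14090 genes were called and 7 of the 10 had an unadjusted p under 0.05. The other 3 comparisons were unchanged in number.

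Of the single fold changes under alternatives, 604 kept their direction and side of the threshold, 51 passed it anew, 31 no longer passed it and 12 changed sign. The sign changed for Apoe between the sites with TGFβ, which ranged from -0.076 to 0.317 with 1 library left out at a time. It also changed for 4 interactions, which ranged from -0.647 to 0.062 for Cebpb, from -0.794 to 0.032 for Lpl, from -2.85 to 0.315 for Cd36 and from -0.142 to 0.819 for Fabp4; the upper ends of Lpl, Cd36 and Fabp4 came without ascending control replicate 2, and that of Cebpb without descending control replicate 3. The interaction of Cebpb was 0.052 without both libraries and 0.046 in DESeq2 without descending control replicate 3, where that of Fabp4 was -0.127. The causes were not tested. The lowest count behind a value, 12 for C1qtnf3, limits its fold change in ascending fibroblasts.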
